A study of Mus musculus with 2 samples.

Results

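MHC class II presentation genes were followed in cells of healing back skin wounds. The group was chosen by name and has 8 members of 33696 features: the α and β chains H2-Aa, H2-Ab1 and H2-Eb1, the peptide-exchange chains H2-DMa, H2-DMb1 and H2-DMb2, the invariant chain Cd74 and the transactivator Ciita. All 8 were found. The wounds were 10 mm across, made through the full thickness of the dorsal skin of wild-type male C57BL/6 mice, an inbred strain, and were taken at day 6. There were 2 libraries of 3′ single-cell RNA sequencing, 1 from aged mice of 24 months and 1 from young mice of 2 months, each from several pooled animals. The study concerns the senescence response of the aged wound. With 1 library per age there was no test between ages, and age, the pooled animals and the preparation cannot be told apart.

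MHC class II molecules carry peptides from engulfed proteins to the cell surface, where CD4+ T cells read them. The α and β chains assemble on the invariant chain in the endoplasmic reticulum, the invariant chain is cut away in endosomes, and H2-DM then exchanges its last fragment for a peptide. Ciita switches the genes on together. Dendritic cells, B cells and many macrophages make class II constitutively, and interferon-γ can bring it out in other cells such as fibroblasts and endothelium.

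Ciita acts through a protein complex bound to short conserved promoter boxes, so the boxes are shown for the members whose levels are compared. RefSeq promoter windows on GRCm38.p6, from 250 bases before to 50 bases after the start, were on hand for H2-Aa, H2-Eb1, H2-DMb1, H2-DMb2 and H2-DMa. H2-Ab1, Cd74 and Ciita have no entry there. The core of the Y box, TGATTGG, and an upstream AAC are in capitals, written 5′ to 3′ in the direction of the gene.
H2-Aa, chr17:34287858-34287911, minus strand: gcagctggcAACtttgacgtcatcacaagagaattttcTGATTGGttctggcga
H2-Eb1, chr17:34305769-34305821, plus strand: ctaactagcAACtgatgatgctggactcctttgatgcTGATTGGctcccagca
H2-DMb1, chr17:34153090-34153143, plus strand: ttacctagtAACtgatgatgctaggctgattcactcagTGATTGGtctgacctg
H2-DMb2, chr17:34145119-34145172, plus strand: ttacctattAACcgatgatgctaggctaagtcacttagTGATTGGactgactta
In these 4 windows AAC stood 25 or 26 bases before TGATTGG, which began 50 bases before the start in H2-Aa, 61 in H2-Eb1, 63 in H2-DMb1 and 92 in H2-DMb2. TGATTGG on either strand was in 7.82% of all 32851 promoter windows, and AAC at this spacing before it in 0.253%. Neither of the 2 H2-DMa windows held TGATTGG on either strand. A match describes these letters and shows no binding.

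The libraries held 4379 aged and 4932 young barcodes, of which 4210 aged and 4661 young cells passed filters, with 107577591 and 111268003 unique molecular identifiers (UMIs). The libraries shared 3 barcodes. Cells were assigned to types by fixed lists of marker genes that hold no MHC gene, which gave 1066 aged and 701 young macrophages/monocytes, 42 and 14 dendritic cells, 1454 and 1560 fibroblasts, 823 and 1306 neutrophils, 49 and 60 blood endothelial cells and 28 and 313 T cells. In 102 aged and 129 young cells 2 lists scored too closely, and 596 and 439 cells met no list. Levels are summed UMIs scaled to a common library total (counts per 1e+06, CPM) of a type in a library, and intervals are 95% and cover counting error only.

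Macrophages held the most class II UMIs of any type in both libraries, and dendritic cells held far more than their number. Of all class II UMIs, 46.0% of the aged and 49.2% of the young lay in macrophages, which were 25.3% and 15% of the cells. Dendritic cells, at 0.998% of aged and 0.30% of young cells, held 14.5% and 6.23%. Cells of no list held 18.2% of aged and 20.1% of young class II UMIs, and with cells thinned to 2000 UMIs, 47 aged and 40 young cells with at least 10 class II UMIs held 93.6% and 93.9% of these. Their best-scoring list was macrophage in 17 and 20 cells, dendritic in 11 and 6, and another list in 19 and 14. The genes that led them relative to macrophages were Il1r2, the decoy receptor of interleukin-1, Pkib, a protein kinase inhibitor, and Ifitm1, an interferon-induced membrane protein. Il1r2 stood at 755 CPM in the aged and 900.0 CPM in the young of them at that depth, against 24.6 and 38.0 CPM in macrophages. It is also on the neutrophil marker list used for the assignment, and these cells were compared with macrophages only. Fibroblasts were about as many in both libraries and held 7.92% of aged and 3.85% of young class II UMIs.

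**Figure D1:**
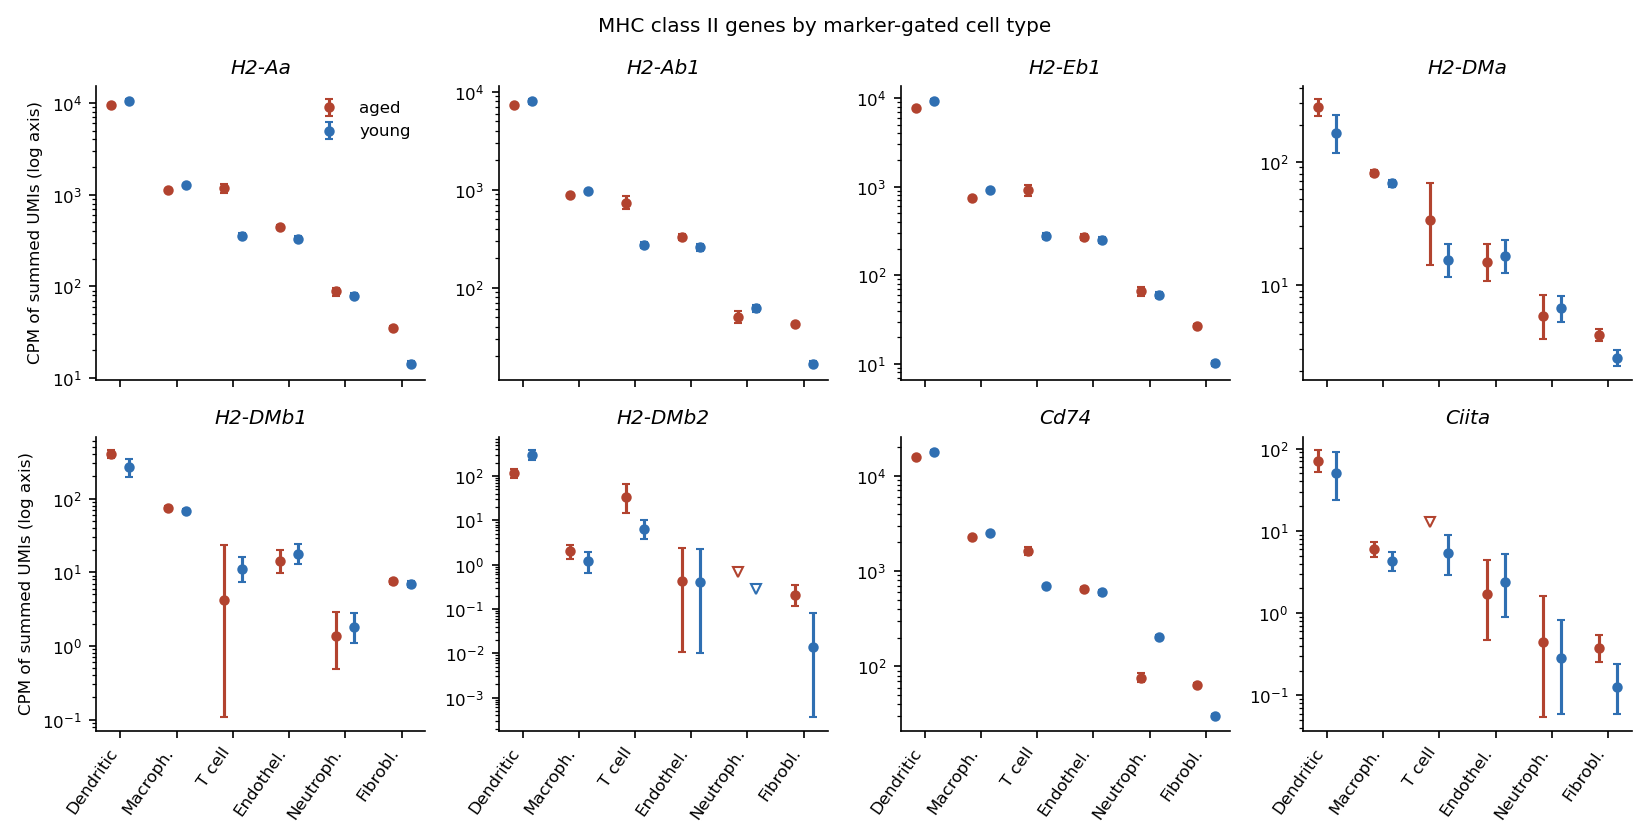
Level of each member (CPM of summed UMIs, log axis) in 6 marker-gated cell types, aged on the left and young on the right of each pair, with 95% Poisson intervals; an open triangle marks a type with no UMI, drawn at the level of 3 counts. Dendritic cells are highest for every member, and macrophages come next for H2-Ab1, H2-DMa, H2-DMb1 and Cd74 in both libraries.

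The order of cell types was alike for the abundant members, with dendritic cells above macrophages and fibroblasts last of the types compared. The sum of the 8 members was 41029 CPM in aged and 46394 CPM in young dendritic cells, and 5189 and 5792 CPM in macrophages. It was 1723 and 1476 CPM in endothelial cells, 288 and 415 CPM in neutrophils, and 181 and 81.3 CPM in fibroblasts. T cells stood at 4515 CPM in the aged and 1635 CPM in the young library.
Single dendritic cells ranged from 2513 to 70054 CPM with a median of 40599 CPM in the aged library, and from 833 to 104069 CPM with a median of 51177 CPM in the young. The ranges overlapped widely.
Cd74, the most counted member, had 15821 aged and 17887 young CPM in dendritic cells and 2277 and 2487 CPM in macrophages. Ciita, the regulator, had 71.1 and 50.1 CPM in dendritic cells, 5.98 and 4.28 CPM in macrophages, and 0.379 and 0.128 CPM in fibroblasts. Ciita counts were few, with 267 aged and 174 young UMIs over all cells.

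Levels of endothelial and T cells rested on a few cells. The 10 richest endothelial cells held 3998 of 4018 aged and 3631 of 3667 young class II UMIs. Macrophage markers summed to 2639 CPM in those 10 aged cells and 2718 CPM in the young, against 40.6 and 224 CPM in the remaining endothelial cells, where class II was 11.6 and 19 CPM. None of 6 endothelial members tested reached 1.5-fold between ages, a size at which 10.1% of all their genes were higher and 7.48% lower in the aged library. In the T cell gate 10 cells held 1066 of 1066 aged and 4113 of 4286 young class II UMIs, and 1 aged cell alone held 1043. Dendritic markers summed to 1396 CPM in the 10 aged and 596 CPM in the 10 young cells, against 126 and 43.0 CPM in the other T cells. Macrophage markers summed to 863 CPM in the 10 aged and 1867 CPM in the 10 young cells, against 292 and 795 CPM in the others. All 5 members tested were higher in the aged T cell gate by 1.5-fold, as were 20.7% of all its genes, while 20.8% were lower. Without the 10 cells no class II UMI was left in aged T cells, of which only 7 held any, and 173 were left in young ones. The part of the other cell types' genes in these levels was not tested.

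Within macrophages class II was uneven in both libraries, with many cells at 0 and others at 10 UMIs or far more. With each cell thinned to 2000 UMIs, 480 of 1016 aged (47.2%) and 357 of 685 young macrophages (52.1%) had no class II UMI. At the other end 267 aged (26.3%, 23.6 to 29.1%) and 192 young macrophages (28.0%, 24.7 to 31.6%) had 10 or more, and the highest cells had 142 and 172. H2-Aa, H2-Ab1, H2-Eb1 and Cd74 were all detected together in 24.2% of aged and 24.4% of young macrophages, and exactly 1 of the 4 in 14.9% and 12.5%. A class II UMI was found in 52.8% of aged and 47.9% of young macrophages, in 25.3% and 33.4% of neutrophils and in 7.84% and 5.18% of fibroblasts at the same depth. Before thinning, median depths were 12759 and 16145 UMIs in macrophages, 4488 and 5688 in neutrophils and 49937 and 42094 in fibroblasts. The unthinned shares were 81.0% and 81.7% in macrophages, 41.4% and 58.3% in neutrophils and 58.2% and 50.2% in fibroblasts.

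**Figure D2:**
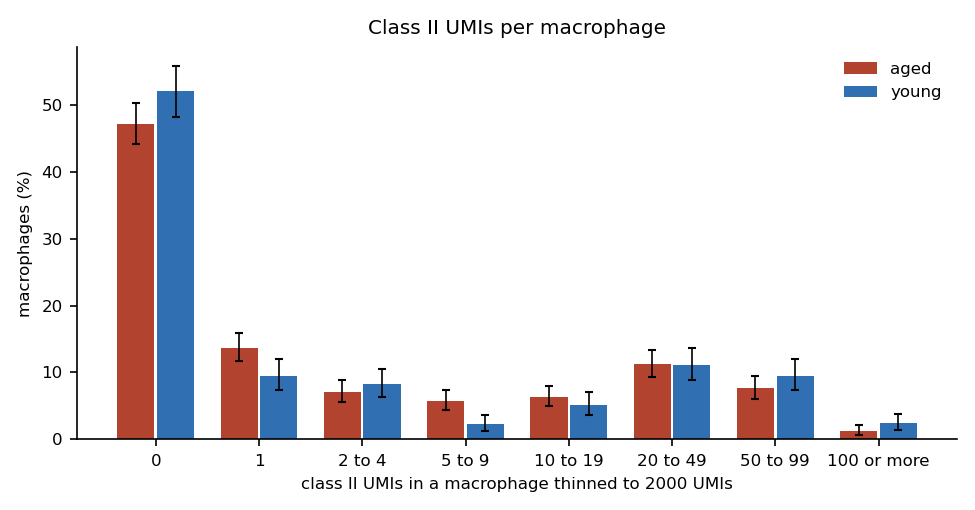
Share of macrophages (%) by the number of class II UMIs in a cell thinned to 2000 UMIs, aged bars left of young bars, with 95% Clopper-Pearson intervals. Cells with none are 47.2% of the aged and 52.1% of the young, and cells with 20 to 49 UMIs are 11.2% and 11.1%; the bins differ in width.

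Macrophages with at least 10 class II UMIs were set against those with none, in each library. The summed monocyte list had a ratio of 1.97 in the aged and 1.03 in the young library. Some single genes had like ratios in both. Ccr2, the receptor that brings monocytes from blood, had 417 CPM in the aged cells with many and 102 CPM in those with none, and 248 and 63.0 CPM in the young, ratios of 4.09 and 3.94. Ms4a4c had ratios of 7.54 aged and 6.40 young, Plbd1 5.78 and 4.55, and Clec7a, the β-glucan receptor dectin-1, 4.99 and 3.08. Cd86, which co-stimulates T cells, had ratios of 1.99 and 1.91, and Jak2, a kinase of the interferon-γ receptor, 2.36 and 2.15.
The inflammatory list was level as a sum, with ratios of 0.994 aged and 0.980 young, and its genes went both ways. Il1b, the cytokine interleukin-1β, had ratios of 2.67 and 1.69. Arg1, the arginase of alternatively activated macrophages, had 605 CPM in the aged cells with many and 5274 CPM in those with none, and 489 and 3486 CPM in the young. Nos2, which uses the same substrate to make nitric oxide, had ratios of 0.108 and 0.102, on 5 aged and 7 young UMIs in the cells with many. Spp1 (osteopontin) had 0.269 and 0.416. Outside that list Pf4, a chemokine, had 0.111 and 0.147. The summed list of resident and late macrophages had ratios of 0.840 and 0.604. In it Lyve1, a marker of perivascular resident macrophages, had 0.134 and 0.0318, on 4 aged UMIs and 1 young UMI in the cells with many. Folr2, a folate receptor, had 0.403 and 0.192, while Mrc1, the mannose receptor, had 1.02 and 0.708 and C1qb 1.0 and 0.900. Trem2, a lipid receptor, had 0.428 and 0.379.
Peptide-generating enzymes went both ways. Ifi30, a thiol reductase that unfolds antigens, had ratios of 1.82 aged and 2.01 young, whereas the lysosomal proteases Ctsl and Ctsd had 0.344 and 0.362, and 0.377 and 0.428. Ctss, which in macrophages and dendritic cells trims the invariant chain, stood at 1.11 and 1.01.
Other genes had unlike ratios in the libraries. Ly6c2 had a ratio of 9.35 in the aged and 1.31 in the young library, Chil3 5.34 and 0.535, and Plac8 5.79 and 2.43. Gpnmb went the other way, with 0.656 and 1.69. Dendritic markers summed to 49.8 CPM in the aged macrophages with many class II UMIs and 82.8 CPM in the young ones, against 17.7 and 21 CPM in those with none, with Clec9a and Ccl17 at 0 in all of them. Ccr7, the receptor of migratory dendritic cells, had 11 UMIs in the aged cells with many and 1 in those with none, and 23 and 0 in the young, where it made up 61.4 CPM of the sum. Their part in the split was not tested.

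Between the ages, the class II level of macrophages differed by less than 1.5-fold for each of the 7 members with at least 50 UMIs. Over all genes of macrophages, 15.2% were higher in the aged library by 1.5-fold or more and 3.92% lower. The aged over young ratio of the class II sum was 0.896 (0.887 to 0.905). The peptide-binding chains and Cd74 were lower in the aged cells, with ratios of 0.885 for H2-Aa, 0.903 for H2-Ab1, 0.810 for H2-Eb1 and 0.915 for Cd74. H2-DMa, at 81.5 aged and 66.6 young CPM, had a ratio of 1.22 (1.12 to 1.34), and Ciita 1.40 (0.990 to 1.99). H2-DMb1 had 1.10 (1.0 to 1.2), but its direction depended on scaling. A scaling that balances most genes (TMM) moved all macrophage ratios by -0.22 on the log2 scale, and gave 0.769 for the class II sum, 0.695 for H2-Eb1, 1.05 for H2-DMa and 0.942 for H2-DMb1.
The ratio was lower in macrophages with C1q, a complement component of mature tissue macrophages, though the difference between the ratios was not tested. In cells with at least 3 C1q UMIs at 2000 UMIs the class II sum was 5673 aged and 7366 young CPM, a ratio of 0.770 (0.745 to 0.796). In cells with fewer it was 6583 and 6857 CPM, a ratio of 0.960 (0.917 to 1.01). C1q cells were 69.3% of aged and 64.7% of young macrophages, and this split was chosen after seeing the data.

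**Figure D3:**
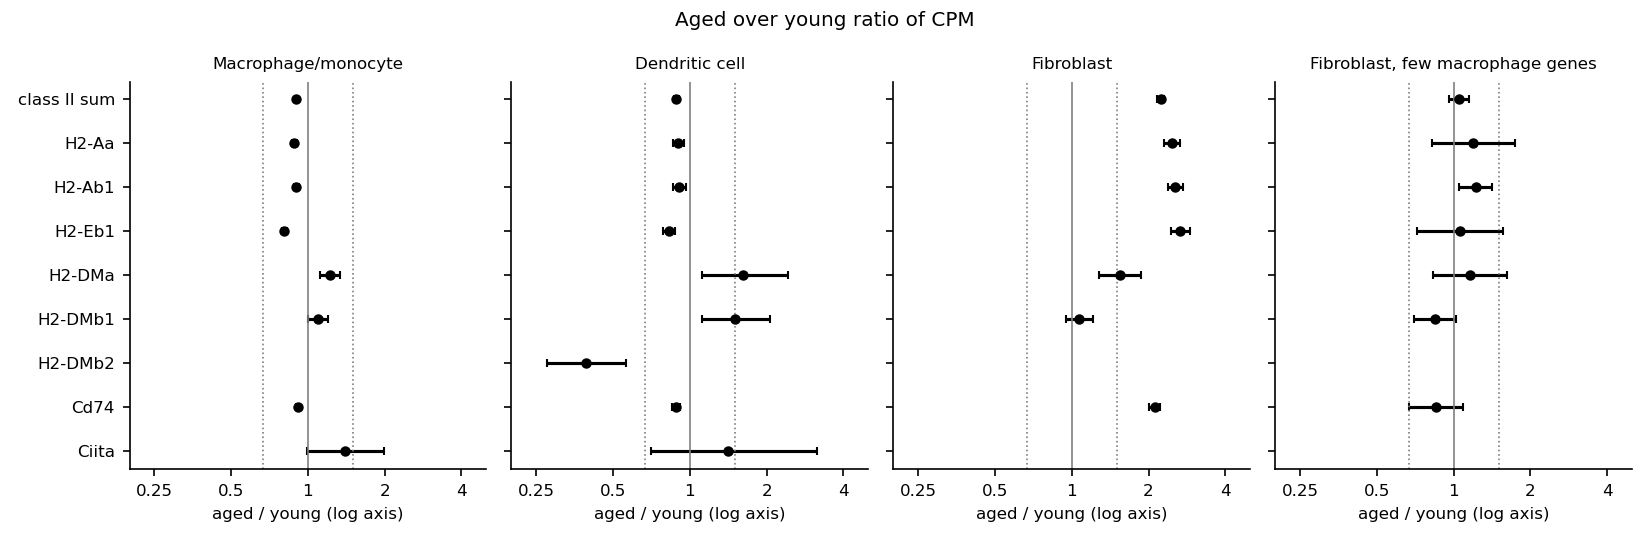
Aged over young ratio of CPM (log axis) for the class II sum and each member with at least 50 UMIs, with 95% intervals for counting error; the solid line is 1 and dotted lines are 1.5-fold. Macrophages lie between 0.810 and 1.40, dendritic H2-DMb2 lies at 0.393, and the fibroblast ratio of 2.23 for the sum is 1.05 in fibroblasts with few macrophage genes.

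In dendritic cells the 2 genes for the H2-DM β chain stood at different balances. H2-DMb2, with 31 aged and 15 young UMIs in macrophages, had 116 CPM (72 UMIs) in aged and 296 CPM (59 UMIs) in young dendritic cells, a ratio of 0.393 (0.275 to 0.565). Leaving out the 10 richest cells of each library, which left 4 young ones, turned it to 2.15. H2-DMb1 stood at 399 CPM in aged and 266 CPM in young cells (ratio 1.5, 1.11 to 2.06; 0.971 with a stricter gate), and H2-DMa 276 and 170 CPM, a ratio of 1.62 (1.12 to 2.42). Of all genes of dendritic cells, 28.8% were higher in the aged library by 1.5-fold and 9.31% lower, and of the 8 members 2 were higher and 1 lower. TMM scaling moved these ratios by -0.23 on the log2 scale, so that H2-DMb1 stood at 1.28, H2-DMa at 1.38 and H2-DMb2 at 0.336.
The balance within a library does not depend on such scaling. H2-DMb2 made up 22.6% (18.1 to 27.6%) of H2-DMb UMIs in aged and 52.7% (43.0 to 62.2%) in young dendritic cells. It made up 2.63% of them in aged and 1.73% in young macrophages, and 16.2% and 15.7% in the cells of no list. In the few B and plasma cells it was 3 of 5 aged and 7 of 8 young UMIs.
Kinds of dendritic cells, which can overlap, were told by marker genes. Cells with at least 2 UMIs of the migratory genes Ccr7 and Fscn1 together were 32 of 42 aged and 13 of 14 young dendritic cells, and in them H2-DMb2 was 51 of 170 H2-DMb UMIs (23.2 to 37.5%) in the aged and 56 of 89 (52.0 to 72.9%) in the young. In cells with as many of Xcr1 and Clec9a, genes of cross-presenting dendritic cells, it was 14 of 111 UMIs in 6 aged cells and 3 of 23 in 1 young cell. Cells with Cd209a, a gene of monocyte-related dendritic cells, were 11 aged and 1 young, and in the 11 aged ones H2-DMb2 was 5 of 108 UMIs. In the 1 young cell H2-DMb2 was 8 of 17 UMIs. Macrophage markers summed to 694 CPM in aged and 251 CPM in young dendritic cells, and their part in the difference was not tested.
The transcripts of the 2 genes are alike, though somewhat less so at their ends. H2-DMb1-201 and H2-DMb2-201 of GENCODE M21 were identical at 94.4% of 1255 aligned bases, with a longest identical run of 221 bases and 206 shared stretches of 91 bases. Their last 500 bases, which 3′ sequencing reads, were identical at 88.8% of 331 aligned bases. The longest identical run there was 34 bases and no stretch of 91 bases, the length of the sequenced read, was shared.

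**Figure D4:**
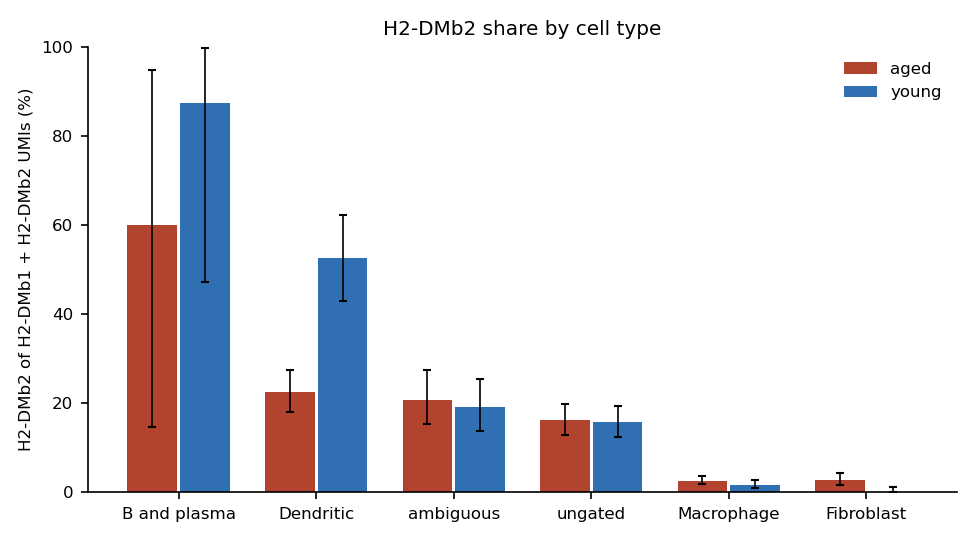
H2-DMb2 as a share (%) of H2-DMb1 and H2-DMb2 UMIs by cell type, aged bars left of young bars, with 95% Clopper-Pearson intervals. Dendritic cells show 22.6% aged and 52.7% young, macrophages 2.63% and 1.73%, and the B and plasma cell bars rest on 5 and 8 UMIs.

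Class II was higher in aged fibroblasts, but mostly in cells that also carried macrophage genes. The sum had 13869 aged and 5725 young UMIs, a ratio of 2.23 (2.16 to 2.30). Of the 6 members with at least 50 UMIs, 5 were higher by 1.5-fold, with ratios of 2.67 for H2-Eb1, 2.54 for H2-Ab1, 2.47 for H2-Aa, 2.11 for Cd74 and 1.55 for H2-DMa. Over all genes of fibroblasts 9.19% were higher and 6.66% lower by as much. With TMM scaling H2-DMa stood at 1.46, under 1.5-fold. H2-DMb1 was 7.48 CPM in aged and 6.99 CPM in young fibroblasts, a ratio of 1.07.
Most of these UMIs lay in 10 cells of each library, with 9339 of 13869 in the aged and 3675 of 5725 in the young. Macrophage markers summed to 1632 CPM in the 10 aged and 1722 CPM in the 10 young cells, against 146 and 150 CPM in the others. Those others still had a class II sum of 59.8 aged and 29.4 young CPM. Without cells of the top 4% of doublet scores the ratio of the sum over all fibroblasts was 1.51.
In the fibroblasts at or under the median level of macrophage genes, 776 aged and 731 young cells, the class II sum was 25.6 aged and 24.4 young CPM, a ratio of 1.05 (0.955 to 1.15). Above that median it was 362 and 135 CPM, a ratio of 2.69 (2.60 to 2.78). In the cells with few macrophage genes Cd74 was at 3.36 and 3.94 CPM, a ratio of 0.852 (0.667 to 1.09), and Ciita was found in 8 aged and 2 young cells. This split was chosen after seeing the data.

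The class II genes that these fibroblasts did carry were in other proportions than in macrophages. H2-Ab1 was counted 455 times and H2-Aa 72 times in the aged cells with few macrophage genes, or 6.32 (4.92 to 8.22) H2-Ab1 UMIs for each of H2-Aa, and 309 and 50 times in the young, or 6.18 (4.57 to 8.51). In macrophages there were 0.776 and 0.762 H2-Ab1 UMIs for each of H2-Aa, and in dendritic cells 0.767 and 0.760. Without thinning, H2-Ab1, the β chain that pairs with H2-Aa, was found in 22.0% of those aged and 18.5% of those young fibroblasts. H2-Aa was found in 8.63% and 6.29%. Depth was not made equal between the libraries for these shares. The 10 richest cells held 25.1% of the aged and 34.6% of the young H2-Ab1 UMIs, and the most in 1 cell were 17 and 32. H2-DMb1 was found in 20.6% and 19.2% of these fibroblasts, also without thinning, with no more than 5 and 6 UMIs in a cell. H2-DMb2 had 0 UMIs in the aged and 1 in the young. Counts of 3′ ends can be compared between cell types for a gene pair, but not read as amounts of the 2 chains.

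Part of the interferon-γ route was higher in these fibroblasts of the aged library, 5 of its 12 genes tested, while no class II member tested reached 1.5-fold. In the cells with few macrophage genes 8.84% of all genes were higher by 1.5-fold or more and 5.87% lower. None of the 12 was lower by as much, and the list had a median log2 ratio of 0.37 against 0.11 for all genes. Cxcl9, a T cell chemokine, had 330 aged and 69.8 young CPM, a ratio of 4.73 (4.53 to 4.94). Irgm1 had a ratio of 3.79, Gbp2 2.99, Gbp3 2.21 and Igtp 2.14, all GTPases of cell-autonomous defence. The receptor chains Ifngr1 and Ifngr2 were at 1.04 and 1.0, the kinase Jak1 at 1.0 and the brake Socs1 at 0.980. Irf1, a transcription factor of the route, was at 0.670 (0.611 to 0.734). Ifng itself had 7 aged UMIs and 1 young UMI in these cells. Whether interferon-γ or another interferon lay behind these ratios was not tested.
MHC class I, which shows peptides from inside the cell, had 5 of 9 genes higher and none lower, with a median of 0.62. Nlrc5, the class I counterpart of Ciita, had 14.8 aged and 4.73 young CPM, a ratio of 3.13 (2.63 to 3.75). The peptide transporter Tap1 had 2.07, the immunoproteasome subunits Psmb9 and Psmb8 1.99 and 1.68, and the heavy chain H2-K1 1.54. Cd274, the checkpoint ligand PD-L1, had 30.8 and 7.23 CPM, a ratio of 4.26, and Cd80, a costimulator, 7.32 and 16 CPM, a ratio of 0.457.
Of 13 genes of class II transcription tested, 2 were higher, Nlrc5 and Irf8 (2.26), and 1 lower, Prdm1, a repressor of Ciita in B cells, with 6.30 and 21.3 CPM and a ratio of 0.296 (0.256 to 0.342). Rfx5, Rfxank and Rfxap, the subunits of the factor that binds the X box, were at 1.03, 1.10 and 1.25.

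**Figure D5:**
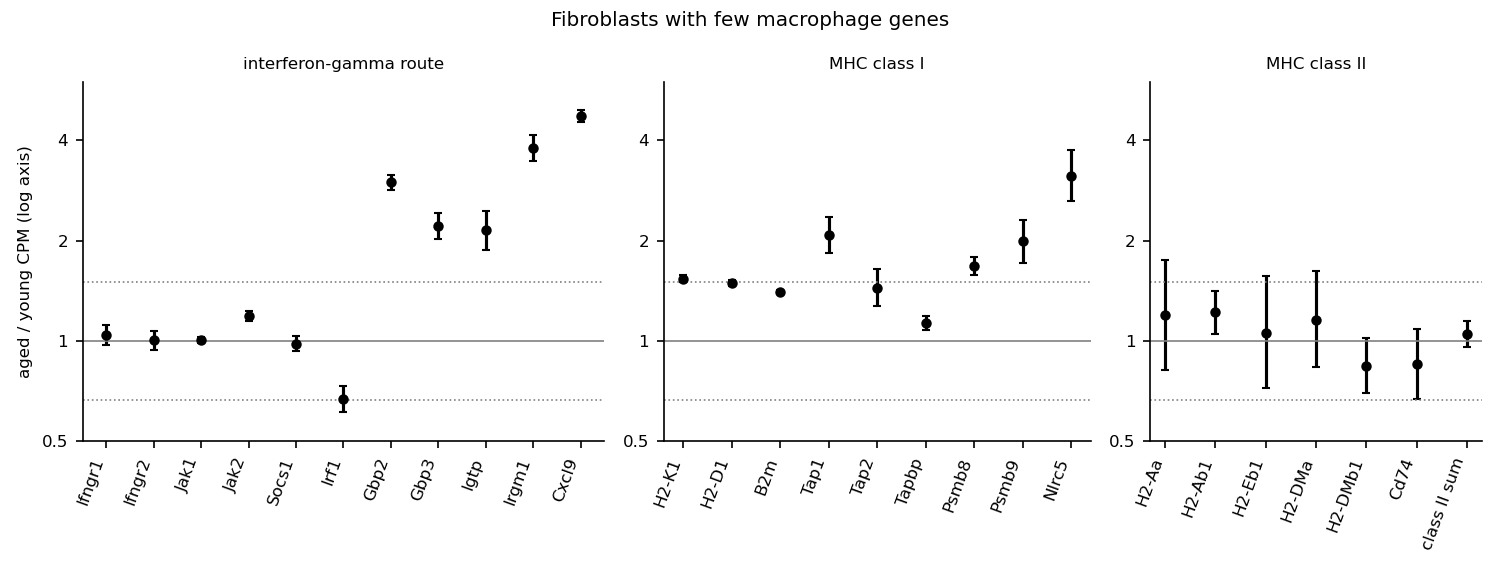
Aged over young ratio of CPM (log axis) in 776 aged and 731 young fibroblasts with few macrophage genes, for genes of 3 groups, with 95% intervals for counting error; dotted lines are 1.5-fold. Cxcl9, Irgm1, Gbp2 and Nlrc5 lie at about 3 or above, while no class II member drawn reaches 1.5.

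Neutrophils had little class II, and Cd74 was lower in the aged library. Of the peptide-binding chains H2-Ab1 was lower by less, and H2-Aa and H2-Eb1 had ratios above 1 before TMM scaling. Cd74 was 76.2 CPM (341 UMIs) in aged and 206 CPM (2164 UMIs) in young neutrophils, a ratio of 0.370 (0.329 to 0.415), and it was the member of 5 tested that was lower by 1.5-fold, as were 7.85% of all genes of neutrophils, while 21.1% were higher. At 2000 UMIs a cell, a Cd74 UMI was found in 9.35% of aged and 20.3% of young neutrophils, against 2.45% and 1.51% of fibroblasts, which before thinning were deeper. Neutrophils with 10 or more class II UMIs were 3 aged and 5 young. How much of the Cd74 was free RNA was not tested. H2-Aa was 88.0 and 79.4 CPM, a ratio of 1.11 (0.981 to 1.25), and H2-Eb1 65.9 and 59.4 CPM, also 1.11. H2-Ab1 was 50.3 and 61.6 CPM, a ratio of 0.816. With TMM scaling H2-Aa and H2-Eb1 both stood at 0.959 and Cd74 at 0.320. There were thus 116 H2-Aa UMIs for 100 of Cd74 in aged neutrophils and 38.5 in young ones, against 49.5 and 51.2 in macrophages. The Cd74 ratio was 0.354 without the 10 richest cells and 0.489 without the top doublet scores, a setting under which H2-Aa stood at 1.74 and H2-Eb1 at 1.70.
Genes of the interferon-γ route were lower in aged neutrophils, 5 of 10 by 1.5-fold or more and none higher. Gbp2 had 31.5 aged and 68.1 young CPM, a ratio of 0.462, and Igtp had 0.293, Irgm1 0.551 and Irf1 0.607.

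Over all cells class II was a little higher in the aged library, though lower within macrophages and within dendritic cells. The other genes of the pathway differed mainly by T cells and interferon-γ genes. The class II sum was 1629 aged and 1335 young CPM, a ratio of 1.22. Within macrophages the ratio was 0.896, within dendritic cells 0.884 and within neutrophils 0.694. It was higher in fibroblasts (2.23), endothelial cells (1.17) and the T cell gate (2.76). Macrophages were 1066 aged and 701 young cells, and dendritic cells 42 and 14. The part of cell numbers in the ratio over all cells was not tested. Over all cells Ciita at 1.59 (1.31 to 1.93) was the 1 member of 8 higher by 1.5-fold. So were 8.96% of all genes, while 8.73% were lower. Ciita stood at 1.47 with TMM scaling and at 1.46 with median of ratios, both under 1.5-fold.
H2-Oa and H2-Ob, whose products form the brake on H2-DM, were the 2 higher of 3 other class II genes tested. H2-Oa had 177 aged and 100 young UMIs, a ratio of 1.83, and H2-Ob 168 and 68 UMIs, a ratio of 2.56. H2-Ea had 0 and 2 UMIs. Within dendritic cells, 42 aged and 14 young, 1 of the 3 genes tested was higher and 1 lower. Their median log2 ratio there was -0.51, against 0.21 for all genes. On the T cell side 6 of 7 genes were lower over all cells, among them Cd4 at 0.335, Cd40lg at 0.0483 and Foxp3 at 0.237. T cells were 28 aged and 313 young. Of 13 interferon-γ genes 4 were higher, led by Cxcl9 at 3.28 and Irgm1 at 2.57.
Of 10 genes of turnover and transport 2 were lower, Cd82 at 0.513 and Rab27a at 0.473. Of 6 partners of Cd74 the chemokine receptor Cxcr2 was lower at 0.499, and of 8 genes of cytokines that act on class II, Il4 was lower with 19 and 32 UMIs. None of 14 transcription genes, 10 processing genes, 6 costimulation genes or 9 class I genes reached 1.5-fold over all cells.

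In macrophages none of 14 transcription genes, 10 processing genes, 6 partners of Cd74 or 9 class I genes reached 1.5-fold in either direction. Marchf8, a ubiquitin ligase of membrane proteins, was the 1 of 10 turnover genes that was higher, at 1.53. Cxcl9 at 0.235 and Socs1, a brake on cytokine signalling, at 0.601 were the 2 of 12 interferon-γ genes that were lower. Csf2, the myeloid growth factor GM-CSF, was higher at 3.18 with 94 aged and 24 young UMIs. Pdcd1lg2, a checkpoint ligand, was lower at 0.498, and so was Cd4 at 0.372.
In dendritic cells, where 28.8% of all genes were higher and 9.31% lower, lists of the pathway had few genes tested. Of 7 transcription genes tested 1 was higher and 3 lower, among them Irf8, a factor of dendritic cell development, with 381 aged and 787 young CPM, a ratio of 0.484. Cxcl9 had 0 aged and 94 young UMIs, and Ifngr1 was higher at 3.02. Cst3, a brake on cathepsins, was higher at 1.57 and Ctsz, a cathepsin, lower at 0.543. H2-Eb2, a relative of H2-Eb1, had 46.8 and 155 CPM on 29 and 31 UMIs, a ratio of 0.301.

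Genes were ranked by how like the members they were in pattern. Likeness was Pearson's r with the mean log level of the members over 8 points, 4 cell types in 2 libraries, among 14297 genes, and dendritic cells had too few cells to enter. Arpc4 of the actin-branching complex (r = 0.994), Crybg1 (0.992) and Eif4a1, a translation helicase (0.991), came first, before Rab5c, Rnpep, Necap2, Cysltr1, Snap29, Brms1 and Hnrnpf. Cysltr1, a leukotriene receptor, had 61.2 aged and 43.6 young CPM in macrophages against 0.614 and 0.455 CPM in fibroblasts, and Eif4a1 638 and 627 CPM against 380 and 338 CPM. Points of 1 library share depth and preparation, so r only ranks genes.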

How the data were processed

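The authors deposited whole-number counts of UMIs for every gene in every barcode. Sources differ on the version of Cell Ranger, which is 8.0.1 in the matrix header and 9.0 in the submitters' processing notes. Of the features, 1684 were absent from GENCODE M21, so coordinates are given only for RefSeq promoters.

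Cells with at least 500 UMIs, 200 genes and under 15% mitochondrial UMIs were kept. Each cell got the marker list with the highest mean scaled log level, if that was at least 0.2, exceeded the next by 0.1 and had 3 detected markers. Scrublet in scanpy 1.11.5 called 2 aged and 3 young doublets, too few to have worked, so doublets were left in, and removing the top 4% of scores is an alternative. Labels do not assign cells to animals.

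UMIs were summed per library and type. Ratios are of CPM with exact conditional binomial intervals, CPM has Poisson intervals and shares Clopper-Pearson intervals. Intervals and floors (3 counts) cover counting error only. A gene counts as higher or lower at 1.5-fold with at least 50 UMIs. Shares of cells with a UMI use cells thinned to 2000 UMIs, unless given as unthinned or without thinning. Thinning left out 291 aged and 236 young cells. TMM came from edgeR 4.0.16 and median of ratios from DESeq2 1.42.0 under R 4.3.3. The code was tested on simulated data. The members, lists and rules were chosen with earlier results of these data known. The naming rule took all members, genes of 10 pathway lists at 1.5-fold, the state lists and the 10 highest and 10 lowest genes of the macrophage split, and the 10 genes of most like pattern. The text gives examples of these, and 1 gene counted in the lists is not reported here by name. The fibroblast split by macrophage genes, the C1q split and the genes of the cells of no list were chosen after their values were seen.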

Additional observations from a re-analysis of the deposited data

Results flagged for a closer look

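The aged over young ratio of the class II sum lay on opposite sides of 1 in different cell types. It was 2.23 in fibroblasts and 0.896 in macrophages, so the fibroblast ratio was 2.49 times that of macrophages. Against neutrophils, at 0.694, it was 3.21 times as high. With 1 library per age neither difference was tested. In fibroblasts with few macrophage genes the ratio was 1.05.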

How the results depend on the processing

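No paired analysis was possible because there is 1 library per age. The class II ratio over all cells, 1.22, was 1.19 without top doublet scores, 1.27 without the 10 richest cells, 1.42 as a mean over cells, 1.2 with totals that leave out abundant genes, 1.47 in thinned cells, 1.13 with TMM and 1.12 with median of ratios. In macrophages, 0.896, these gave 0.886, 0.925, 0.815, 0.884, 0.828, 0.769 and 0.766, a stricter gate 0.859, a looser gate 0.958, and cells with and without C1q 0.770 and 0.960. In dendritic cells, 0.884, a stricter gate gave 0.829, a looser gate 0.926, a mean over cells 0.852, thinning 0.836, TMM 0.755 and median of ratios 0.762. Leaving out 10 cells gave 3.87 there and turned H2-DMb2 to 2.15, since it leaves 4 of 14 young cells and gives no finite ratio for H2-DMa, H2-DMb1 or Ciita. A stricter gate gave 0.971 for H2-DMb1. In fibroblasts, 2.23, the values were 1.51 without top doublet scores, 2.03 without the 10 richest cells, 2.34 as a mean, 2.37 thinned, 2.11 with TMM, 2.10 with median of ratios, and 1.05 with few macrophage genes, where Cd74 was 0.852. In the T cell gate the class II sum, H2-Aa, H2-Ab1, H2-DMa and Cd74 went to 0 without 10 cells, since none was left in aged cells, and H2-DMa, on 8 aged UMIs, was 0.940 as a mean and 0 thinned. Macrophages with a class II UMI were 44.6% aged and 42.3% young at 1000 UMIs, 81.0% and 81.7% unthinned, and 39.1% and 38.4% with at least 2 UMIs. Where a value moved and its cause is not named, the cause was not tested. The 14 young dendritic cells and the few Ciita UMIs limit what can be read from them.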
